A study of Mus musculus with 4 samples.

Results

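The genes of the platelet-derived growth factor (PDGF) system were followed in the RNA of mouse lung endothelial cells (ECs) after unilateral pneumonectomy (PNX), the removal of the left lung. The 6 genes, taken by symbol alone, were the ligands Pdgfa, Pdgfb, Pdgfc and Pdgfd and the receptors Pdgfra and Pdgfrb, out of 24063 gene symbols in the deposited tables, and all 6 passed the filter on low counts. ECs came from lungs of C57BL6 mice (C57BL6J in the study's methods), 8 weeks old and labelled male, that had either undergone PNX 7 days earlier or a sham operation, which in the study's methods was a thoracotomy without removal of the lung. They were selected with magnetic beads carrying an antibody to CD31, and there were 2 libraries per group, each pooled from the cells of 2 mice. The study's methods name ketamine and xylazine for the operation and meloxicam as analgesic, without a difference between the groups, and the labels name no transgene or further treatment for either group. Comparing ECs after PNX with those after sham surgery addressed how EC expression changes while the remaining lung grows.

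PDGFs are secreted as dimers and signal through 2 receptor tyrosine kinases of class III. PDGF-A and PDGF-C act mainly through PDGFRα, PDGF-D mainly through PDGFRβ, and PDGF-B binds both. In blood vessels, PDGF-B made by ECs attracts pericytes, which carry PDGFRβ, and in the lung PDGF-A from the epithelium acts on fibroblasts that carry PDGFRα during the formation of alveoli. ECs are thus known as a source of ligand, while the receptors are best known from mesenchymal cells.

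For each symbol the transcript with the highest summed count was used, and these transcripts held between 41367438 and 50952879 counts per library. The labelled cell type was checked on its markers. Pecam1, which encodes CD31, had between 90191 and 91116 normalized counts (counts scaled to the mean library size) in the 4 libraries, but RNA of other cell types was present in all of them, with up to 171272 normalized counts of the surfactant gene Sftpc, up to 144895 of the myeloid gene Lyz2 in sham and 167185 after PNX, and at least 9013 of the fibroblast collagen gene Col1a1. In bulk RNA of this kind, fewer cells of a type and less RNA per cell cannot be told apart. The libraries also went against the label of sex, since 44 genes of chromosome Y had 0 counts in every library while Xist, which is transcribed from the inactive X chromosome, had at least 31872 normalized counts. This held for sham and post-PNX libraries alike, so no library could be set aside for it.

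The genes of the PDGF system did not move together, since Pdgfra fell, Pdgfrb and Pdgfc rose, and Pdgfa, Pdgfb and Pdgfd did not pass the test. All changes were smaller than 2-fold. At an adjusted p under 0.01 (edgeR quasi-likelihood F test, Benjamini-Hochberg adjusted over the 16208 genes tested), 3 of the 6 genes were called, against 57.1% of all genes tested. Of these 3, the 2 higher genes stood against 29.3% of all genes called higher, and the 1 lower gene against 27.8% called lower. With the additional demand of a log2 fold change beyond 1, the threshold of the study's methods, edgeR called 0 of the 6 genes, against 7.56% of all genes (5.9% higher and 1.66% lower), and DESeq2 also called 0. At an unadjusted p under 0.05, without the demand on fold change, edgeR counted 4 of them, against 68.2% of all genes tested, and DESeq2 3, against 53.6% of the same genes. The shares called are close to or below the background, so the count is no result about the PDGF genes as a group.

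**Figure D1:**
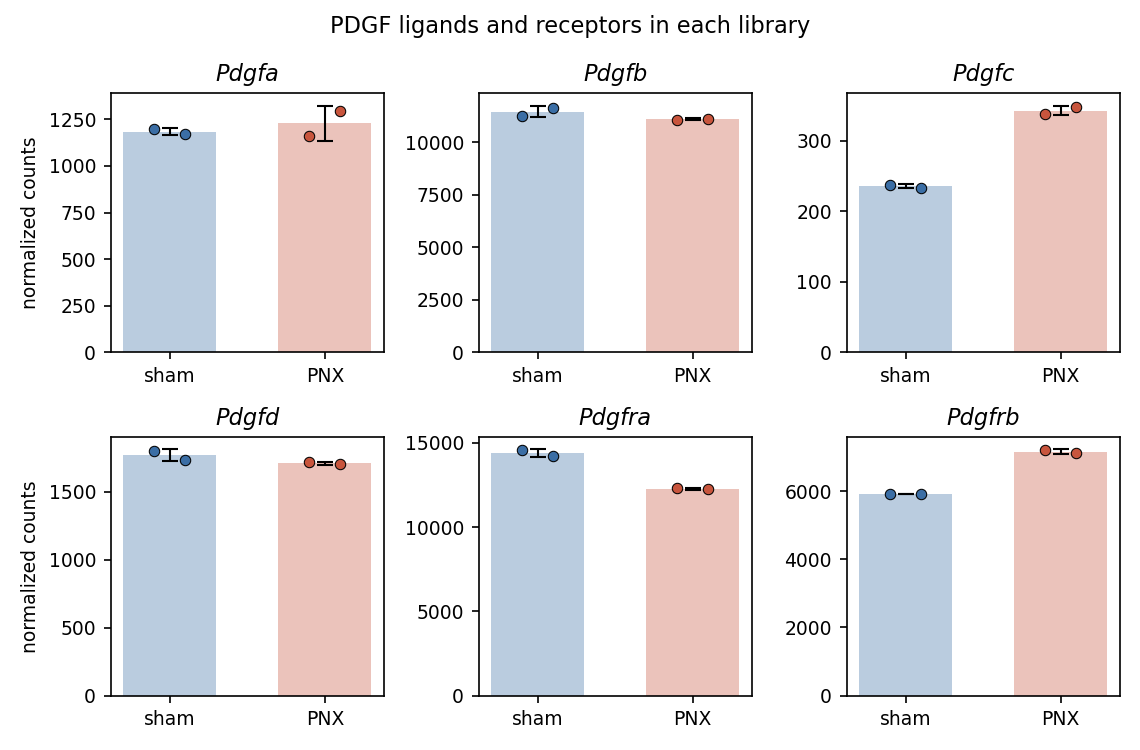
Normalized counts (vertical axes, each from 0) of the 6 PDGF genes in sham (blue) and post-PNX (red) ECs, with 1 point per library, bars for the mean and error bars for the SD of 2 libraries. Both post-PNX libraries lie below both sham libraries for Pdgfra and above them for Pdgfrb and Pdgfc, whereas the Pdgfa values of the groups overlap.

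Pdgfra encodes PDGFRα, the receptor of PDGF-A and PDGF-C and a marker of fibroblasts. It lies on chromosome 5 from 75151322 to 75198206 (RefSeq annotation of GRCm38.p6, the build also called mm10). It had 14559.9 and 14250.0 normalized counts in sham ECs, compared with 12325 and 12249.6 after PNX. The groups did not overlap, and the post-PNX libraries lay closer together than the sham libraries. The means were 14405 ± 219 (SD, n = 2) and 12287 ± 53.4 (SD, n = 2) (log2 fold change -0.23, standard error, SE, 0.020, 95% confidence interval -0.27 to -0.19, adjusted p = 2.4e-15 from the edgeR fit over all genes), so Pdgfra fell by 14.7%. This fall was larger than the spread between replicates but depended on the scaling. With libraries scaled by the summed counts of 12 endothelial markers instead of TMM, edgeR's trimmed mean factors, the log2 fold change of Pdgfra was 0.02 (adjusted p = 0.43, edgeR).

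Pdgfrb encodes PDGFRβ, the receptor of pericytes and other mural cells, and lies on chromosome 18 from 61045127 to 61085067. Its levels were 5918 and 5907 normalized counts in sham and rose to 7203 and 7103 after PNX. Here both post-PNX libraries were above both sham libraries, the opposite of the order seen for Pdgfra. The means were 5913 ± 7.80 (SD, n = 2) and 7153 ± 70.5 (SD, n = 2) (log2 fold change 0.27, SE 0.024, 95% confidence interval 0.23 to 0.32, adjusted p = 1.6e-15 from the same edgeR fit), so that Pdgfrb was 21.0% higher after PNX. With scaling to the endothelial marker genes its log2 fold change was 0.52, and the call remained. The table lists 2 transcripts of each receptor. Those of Pdgfrb had the same count in every library, 6533 and 5795 in sham and 7330 and 6375 after PNX, and those of Pdgfra differed by at most 22 counts, so the counts say nothing about isoforms.

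Because a ratio of 2 genes within a library does not depend on how libraries are scaled, the receptors were also set against each other. On the TPM scale (transcript abundance corrected for length), the ratio of Pdgfra to Pdgfrb was 2.03 and 1.99 in sham and 1.41 and 1.42 after PNX. Pdgfra thus remained the more abundant receptor transcript in every library, while its ratio to Pdgfrb after PNX was 0.705 of that in sham. An exact permutation test over libraries, two-sided, gave p = 0.333, which is the smallest value that 2 against 2 libraries allow.

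Pdgfc encodes a ligand that is secreted in latent form and acts mainly on PDGFRα once a protease has removed its CUB domain. It lies on chromosome 3 from 81036416 to 81214040. Its counts were low, with 262 and 229 reads in sham and 344 and 312 after PNX, far above the 3 counts taken as the limit of detection. In normalized counts these were 237 and 233 in sham against 338 and 348 after PNX, and the groups did not overlap. The means were 235 ± 2.77 (SD, n = 2) and 343 ± 6.79 (SD, n = 2) (log2 fold change 0.54, SE 0.092, 95% confidence interval 0.36 to 0.72, adjusted p = 6.2e-07 from the same edgeR fit), so Pdgfc was 45.4% higher after PNX. It had the largest change of the 6 genes in that fit, larger in size than the change of 80.4% of all genes tested. With scaling to the endothelial marker genes the log2 fold change was 0.79.

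The sequences around an annotated transcript start of Pdgfc and of Pdgfra are shown, the changed genes for which a promoter window was used. They are shown because the study is about YAP1, which acts on DNA through TEAD factors, and names Twist1, a factor that binds E-boxes. The Pdgfra window, from 75152001, lies downstream of the first base of the RefSeq gene, 75151322. Windows of 300 bases, 250 before and 50 after a transcript start, were taken from RefSeq (GRCm38.p6). They were used for 4 of the 6 genes, and Pdgfb and Pdgfrb were not examined. Capitals mark the TEAD core motif GGAATG and the E-box CANNTG, each searched on both strands.
Pdgfc, chr3:81036166-81036465, plus strand: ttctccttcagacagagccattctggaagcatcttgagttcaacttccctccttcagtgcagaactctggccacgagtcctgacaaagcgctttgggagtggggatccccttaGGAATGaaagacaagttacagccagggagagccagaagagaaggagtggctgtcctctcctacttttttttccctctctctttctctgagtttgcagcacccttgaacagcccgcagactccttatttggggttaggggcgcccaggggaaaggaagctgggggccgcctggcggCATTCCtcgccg
Pdgfra, chr5:75152001-75152300, plus strand: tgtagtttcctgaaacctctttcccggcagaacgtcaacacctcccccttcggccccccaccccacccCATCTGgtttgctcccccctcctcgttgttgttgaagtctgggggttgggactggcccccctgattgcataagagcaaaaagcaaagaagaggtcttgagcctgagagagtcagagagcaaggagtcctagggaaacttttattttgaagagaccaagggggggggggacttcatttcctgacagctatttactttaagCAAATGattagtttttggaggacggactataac

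The Pdgfc window held 2 TEAD motifs, GGAATG beginning 137 bases before the start and CATTCC beginning 38 bases after it, and no E-box. The Pdgfra window held 2 E-boxes, CATCTG and CAAATG, and no TEAD motif. Of 32851 windows of this length, 14.7% held at least 1 TEAD motif and 1.36% at least 2, while 72.3% held at least 1 E-box and 39.6% at least 2. The window of Pdgfd and both windows of Pdgfa, which has 2 annotated starts, held neither motif. A match of these letters is a description of the sequence and no evidence that a factor binds there.

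Pdgfb encodes the ligand that ECs release to recruit pericytes, and lies on chromosome 15 from 79995865 to 80024614. Its 2 sham libraries had 11253 and 11644 normalized counts and its 2 post-PNX libraries 11053 and 11119.8. Both post-PNX values were below both sham values, but the gap between the groups was smaller than the gap between the sham libraries. The log2 fold change was -0.05 (SE 0.021, 95% confidence interval -0.09 to -0.003, adjusted p = 0.054, edgeR), which did not pass the threshold of 0.01.

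Pdgfa, which encodes the main ligand of PDGFRα, lies on chromosome 5 from 138976014 to 139000792. It had 1198 and 1172 normalized counts in sham and 1163 and 1296 after PNX. The post-PNX libraries lay on either side of the sham libraries. The log2 fold change was 0.05 (SE 0.049, 95% confidence interval -0.05 to 0.15, adjusted p = 0.38, edgeR), and it was -0.026 without the second post-PNX library. Pdgfd, on chromosome 9 from 6168363 to 6534284, encodes a latent ligand of PDGFRβ that is also activated by proteolysis. It had 1798 and 1736 normalized counts in sham and 1718 and 1701 after PNX, with both post-PNX values just below both sham values. Its log2 fold change was -0.05 (SE 0.040, 95% confidence interval -0.13 to 0.03, adjusted p = 0.29, edgeR). With scaling to the endothelial marker genes Pdgfa, Pdgfb and Pdgfd passed the threshold as higher, with log2 fold changes of 0.30, 0.20 and 0.20.

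That scaling moved the median log2 fold change of all genes tested from 0.0012 to 0.249, and the genes past both thresholds from 957 higher and 269 lower to 1305 higher and 88 lower. Relative to this median the values of the PDGF genes were close to those with TMM, at -0.23 for Pdgfra, 0.27 for Pdgfrb, 0.54 for Pdgfc, 0.048 for Pdgfa, -0.047 for Pdgfb and -0.049 for Pdgfd. This follows from the scaling itself, which adds nearly the same amount to every gene.

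**Figure D2:**
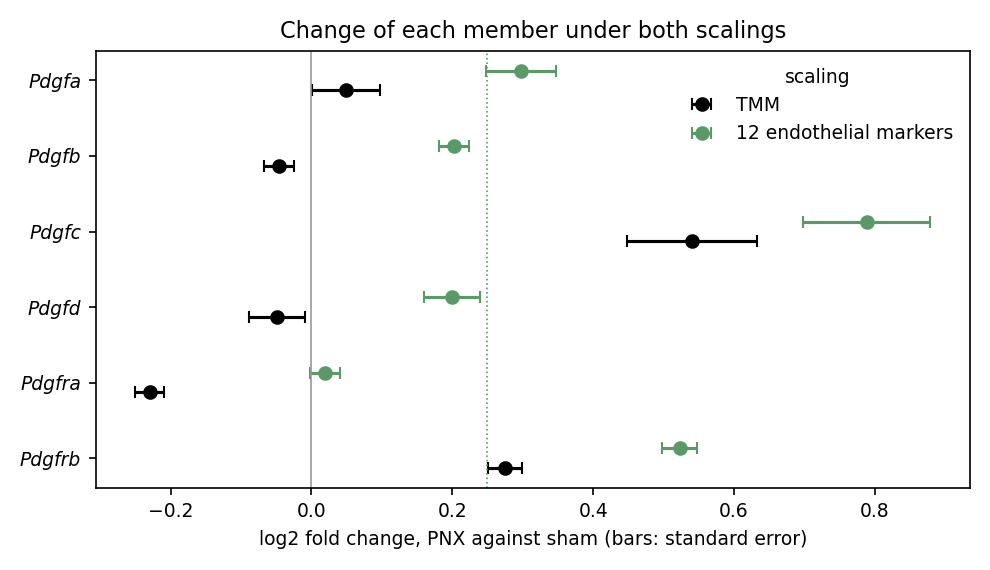
Log2 fold changes of the 6 PDGF genes between post-PNX and sham ECs (horizontal axis), with TMM scaling in black and scaling to 12 endothelial marker genes in green. Error bars are standard errors, the grey line marks no change and the dotted green line the median of all genes, 0.249, under the second scaling. Each green point lies to the right of its black point by about the distance between the lines, which moves Pdgfra from -0.23 to 0.02.

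Levels were compared between genes on the TPM scale. In sham ECs Pdgfb was the most abundant of the 6 transcripts, with 133 and 137 TPM. Pdgfra followed with 77.1 and 75.3 TPM, and then Pdgfa with 40.8 and 39.9, Pdgfrb with 37.9 and 37.8 and Pdgfd with 34.8 and 33.5 TPM. The values of neighbours in this order did not overlap between sham libraries. Pdgfc was far below the others, with 2.34 and 2.30 TPM. After PNX the order was Pdgfb with 127 and 128 TPM, Pdgfra with 63.7 and 63.3, Pdgfrb with 45.1 and 44.4, Pdgfa with 38.7 and 43.1, Pdgfd with 32.4 and 32.1 and Pdgfc with 3.26 and 3.35 TPM. Pdgfrb thus stood above Pdgfa after PNX and below it in sham.

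Among all genes tested, Pdgfb had a higher mean TPM than 94.7%, Pdgfra than 88.6%, and Pdgfc than 22.2%. The place of Pdgfa depends on its gene model. Its deposited FPKM (the other length-corrected unit in the tables) implies a transcript of 1018 bases, whereas the matched GENCODE M21 transcript has 2060 bases, so its level per length, its order beside Pdgfrb and the ratios of other genes to it are uncertain, but its change between groups is not touched. For the other 5 genes the implied length was within 10 bases of the matched transcript. Antisense transcripts overlap exons of Pdgfa, Pdgfc and Pdgfra, and since it is not stated whether strand was used in counting, reads of the partners cannot be told apart.

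**Figure D3:**
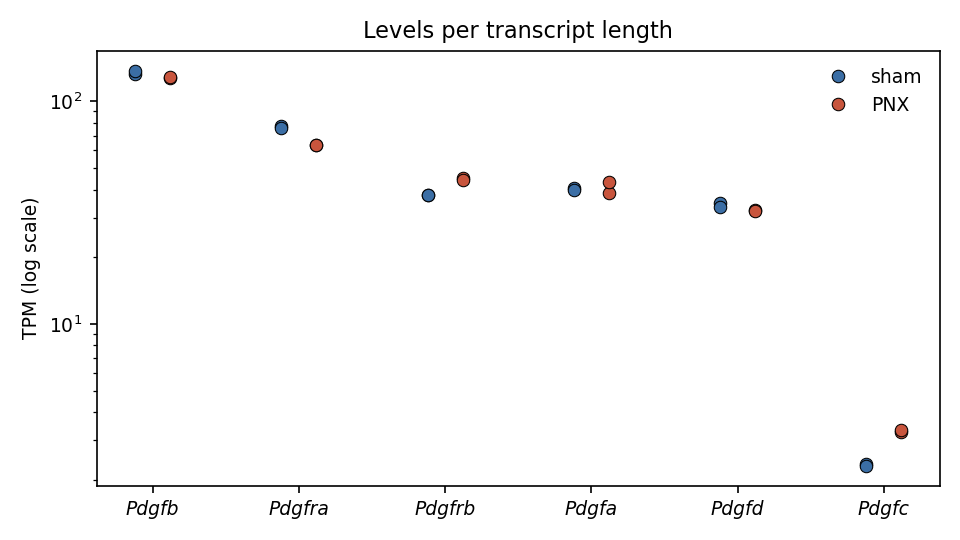
Levels of the 6 PDGF transcripts in TPM (vertical axis, log scale), ordered by their mean over the 4 libraries, with 1 point per library for sham (blue) and post-PNX (red) ECs. Pdgfb lies highest at 127 to 137 TPM, Pdgfc lowest at 2.30 to 3.35 TPM, and Pdgfrb and Pdgfa exchange places between the groups.

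Ligand and receptor were then set side by side within each library. The ratio of Pdgfb to Pdgfrb in TPM was 3.50 and 3.63 in sham and 2.82 and 2.88 after PNX, without overlap. The ratio of Pdgfa to Pdgfra was 0.529 and 0.530 in sham and 0.608 and 0.681 after PNX, again without overlap. Each gave p = 0.333 in the exact permutation test, two-sided, the smallest possible. For Pdgfb to Pdgfa the groups overlapped, with 3.25 and 3.44 in sham and 3.29 and 2.97 after PNX (p = 0.667, exact permutation test). Of the genes in these ratios, Pdgfra and Pdgfrb passed the test and Pdgfa and Pdgfb did not.

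Beyond the ligands and receptors, 65 genes of the pathway in 5 lists were examined, all of which were tested. Of these, 27 were higher, 27 lower and 11 not called at an adjusted p under 0.01 (edgeR), with a median log2 fold change of 0.03, against 0.0012 over all genes, of which 29.3% were called higher and 27.8% lower. With scaling to the endothelial marker genes the counts were 46 higher, 6 lower and 13 not called, with a median of 0.28 against 0.249 over all genes, of which 57.9% were then called higher and 9.11% lower. The genes with a log2 fold change beyond 1 were 4 of the 65, a share near the 7.56% of all genes, and these 4 were higher and stood in the list of proteins that bind the ligands or receptors.

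In that list of ligand-binding, decoy and co-receptor proteins, 7 of 8 genes were higher and 1 lower, with a median log2 fold change of 0.69. Sparc, a matricellular protein that binds PDGF-B, rose from 53851 and 54663 normalized counts in sham to 115650 and 119007 after PNX (log2 fold change 1.11, SE 0.016, adjusted p = 1.0e-54, edgeR). Cspg4, which encodes the proteoglycan NG2 of pericytes, a binding partner of PDGF-A, rose from 678 and 736 to 1408 and 1484 normalized counts, a log2 fold change of 1.03. Pdgfrl, which encodes a secreted protein similar to the outer part of the receptors, had 67.0 and 51.0 normalized counts in sham and 146 and 188 after PNX, a log2 fold change of 1.48. A2m, a plasma protease inhibitor that carries PDGF, had 19.0 and 15.3 against 61.9 and 80.2 normalized counts, a log2 fold change of 2.02. For these 4 genes the groups did not overlap. The lower gene was Nrp1, a co-receptor best known for VEGF, with a log2 fold change of -0.42, named after its value was seen.

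The enzymes that activate PDGFs and the inhibitors of these enzymes changed less. Of 9 genes 7 were higher and 2 lower, with a median log2 fold change of 0.42. Furin, the convertase that processes PDGF-A and PDGF-B, rose from 7826 and 7817 to 8797 and 8947, a log2 fold change of 0.18. Plat and Plau, named after their values were seen, encode the plasminogen activators tPA and uPA, which cleave PDGF-C and PDGF-D. Their log2 fold changes were 0.53 (adjusted p = 1.5e-27, edgeR) and 0.42 (adjusted p = 1.0e-14, edgeR). With scaling to the endothelial marker genes 7 of the 9 were higher and 0 lower, where 57.9% of all genes were called higher. Plat was then at 0.78 and Plau at 0.67, and Nrp1 was still lower at -0.17.

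Among the adaptors and effectors downstream of the receptors, 16 of 30 genes were lower, 7 higher and 7 not called, with a median log2 fold change of -0.09. Mapk3, which encodes ERK1 and had the most counts, was at 0.03 on the log2 scale (adjusted p = 0.21, edgeR), and Jak1 at -0.11. The largest falls, named after their values were seen, were those of Pik3cb, a catalytic subunit of PI3-kinase (log2 fold change -0.41), and Plcg1, phospholipase Cγ, which docks on the activated receptors (-0.36). Scaled to the endothelial marker genes, 22 of the 30 were higher and 2 lower with a median of 0.16, where 57.9% of all genes were called higher. Pik3cb was then at -0.17 and Plcg1 at -0.11. The list median was thus below that of all genes under both scalings, which was 0.0012 with TMM and 0.249 with the endothelial marker genes. Its positive sign under the second scaling follows from the shift that this scaling gives to all genes. The ubiquitin ligases, phosphatases and Grb adaptors that limit receptor signals went in both directions, 5 higher, 5 lower and 2 not called, with Ptpn1 at a log2 fold change of 0.16 and Grb10 at 0.67. The other class III kinases and their ligands were likewise split, 2 higher, 3 lower and 2 not called. Kit, the receptor of stem cell factor, fell by 0.34 on the log2 scale and its ligand gene Kitl by 0.19, whereas Csf1r, the receptor of macrophage colony-stimulating factor, named after its value was seen, rose by 0.68. With the other scaling the ligases and phosphatases were 7 higher and 2 lower, the class III list 4 higher and 1 lower, Kit was at -0.09 and Kitl at 0.06.

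**Figure D4:**
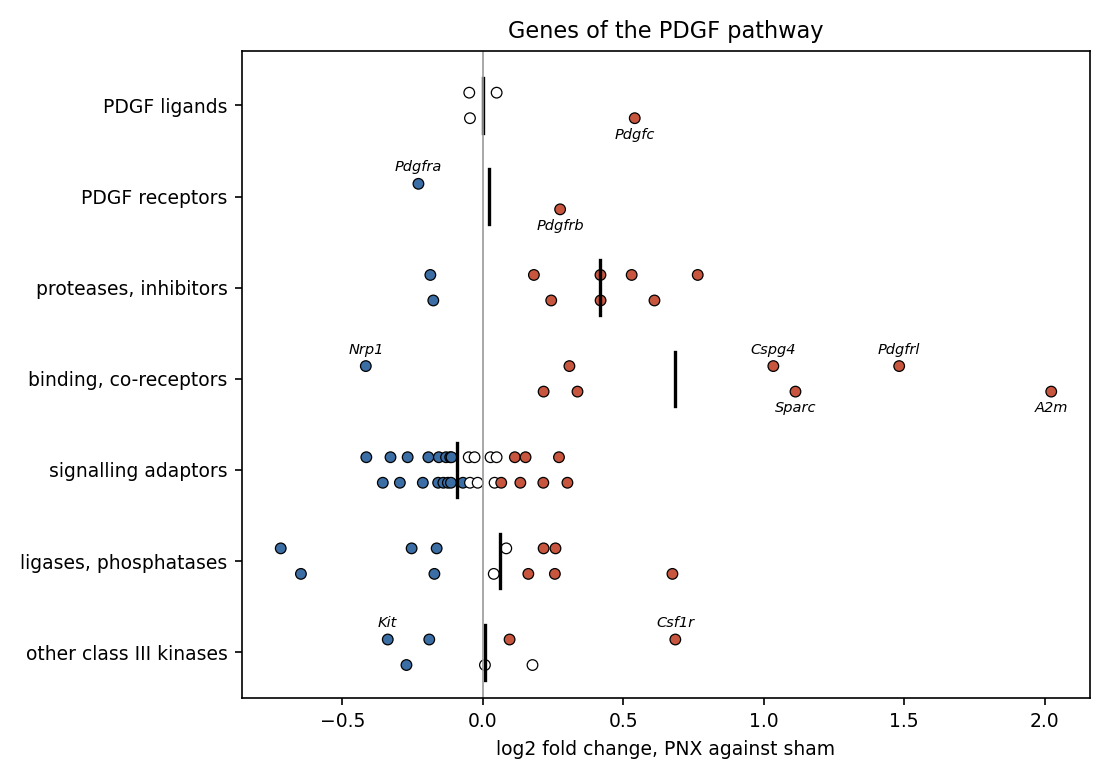
Log2 fold changes (horizontal axis) of PDGF genes and of 5 lists of pathway genes, with 1 point per gene, filled red where higher and blue where lower at an adjusted p under 0.01, open where not called, and a black line for the median of each list. The 4 points beyond 1 are Cspg4, Sparc, Pdgfrl and A2m.

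Since the receptors are best known from mesenchymal cells, their values are given beside markers of those cells. The 16 fibroblast markers had a summed level between 117224 and 119071 normalized counts in sham and between 301701 and 303694 after PNX. They include Cd34, which is not particular to fibroblasts and is also expressed by ECs. Its mean was 20850 normalized counts in sham and 34090 after PNX, so this part of the sum cannot be assigned to fibroblasts. Of the 16 genes 11 were higher, 4 lower and 1 not called, with a median log2 fold change of 0.71, and no marker was at 0. Lum and Col1a1 had the largest changes (log2 fold changes 4.26 and 2.34), and Col3a1 and Col1a2 the most counts (2.27 and 2.08). Pdgfra went against the sum of this list. Per 1000 counts of the list it had 124 and 119.7 counts in sham and 40.9 and 40.3 after PNX. The groups are far apart in this ratio, which scaling does not touch, and in the exact permutation test it reached the smallest possible p = 0.333. The sum itself rose by 1.36 on the log2 scale, so a gene with little change between groups also falls in this ratio. Much of the rise of the sum came from collagen genes. Mean normalized counts rose from 18233 to 88244 for Col3a1, from 14036 to 59343 for Col1a2 and from 9099 to 45932 for Col1a1. The ratio therefore does not give the level of Pdgfra per fibroblast.

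Within the list the genes did not move together. Named after their values were seen, the lower genes were Scube2 (log2 fold change -0.48), Wnt2 (-0.47), Fgf10 (-0.35) and Col13a1 (-0.14), and Tcf21, a transcription factor of lung fibroblasts, was not called (0.02, adjusted p = 0.68, edgeR). Npnt, with the third most counts of the list and likewise named after its value was seen, was higher by 0.07 (adjusted p = 0.00033, edgeR). The value of Pdgfra, -0.23, lay between those of Fgf10 and Col13a1. With scaling to the endothelial marker genes Col13a1 (0.11), Tcf21 (0.26) and Npnt (0.32) were higher, Scube2 (-0.23) and Wnt2 (-0.22) were lower, and Fgf10 was at -0.11 without passing the test.

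The 15 markers of pericytes and smooth muscle had a summed level between 37336 and 37602 normalized counts in sham and between 42483 and 42523 after PNX, with 11 genes higher, 1 lower and 3 not called and a median log2 fold change of 0.43. Rgs5, a pericyte gene, had a log2 fold change of 2.09 and Cspg4 one of 1.03, while Itga8, the marker with the most counts, had -0.38, and Tagln 0.46. Pdgfrb moved with the sum of this list. Per 1000 counts of the list it had 157 and 158 counts in sham and 169.5 and 167 after PNX, a ratio of 1.07 between the groups. Itga8, which fell, is a large part of this sum, with mean normalized counts of 14784 in sham and 11338 after PNX. This ratio therefore depends on Itga8 and does not give the level of Pdgfrb per mural cell. Pdgfra per 1000 counts of this list had 387 and 382 in sham and 290 and 288 after PNX. Per 1000 counts of the fibroblast list Pdgfrb was lower too, with 50.5 and 49.6 in sham and 23.9 and 23.4 after PNX. A fall against the fibroblast sum was thus not particular to Pdgfra. No marker of the mural list was at 0. Under the endothelial scaling 13 of the 16 fibroblast markers were higher and 2 lower, and 13 of the 15 mural markers higher and 1 lower. Of all genes, 57.9% were then called higher and 9.11% lower. The part of fibroblast and mural RNA in the changes of Pdgfra and Pdgfrb was not tested.

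Markers of further cell types that can express PDGFs moved as well. The endothelial markers fell, 10 of 12 lower, 1 higher and 1 not called, with a median log2 fold change of -0.25 and a summed level of 522682 and 528594 in sham and 441675 and 443323 normalized counts after PNX. The largest falls were those of Eng (-0.54) and Tek (-0.50), and Cdh5 and Pecam1, with the most counts, had -0.22 and -0.01. Scaled to their own sum, 5 of the 12 were lower and 4 higher. Under TMM Pdgfb, the ligand of ECs, had a smaller change than the median endothelial marker. In megakaryocytes and platelets, which store PDGF, 5 of 10 markers were higher and 5 not called, with Pf4 at 1.34, Gp1bb at 0.85, Itga2b at 0.38 and Ppbp at 0.26 on the log2 scale, and sums of 3239 and 3383 against 4691 and 4682 normalized counts. Scaled to the endothelial marker genes, 9 of the 10 were higher and 1 was not called, where 57.9% of all genes were called higher and the median of all genes was 0.249.

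Markers of the alveolar epithelium, known as a source of PDGF-A, were mostly lower. For alveolar type 1 cells 6 of 7 markers were lower and 1 higher, with summed levels of 137102 and 137650 in sham and 101890 and 102261 after PNX, and with Rtkn2 and Akap5 at log2 fold changes of -0.99 and -0.90 and Clic5 and Ager at -0.35 and -0.38. For alveolar type 2 cells 7 of 7 were lower, with summed levels of 304514 and 305409 in sham and 197640 and 196563 after PNX, and with Sftpa1 at -0.71, Lamp3 at -0.66 and Sftpc at -0.62. Pdgfa was not called beside these falls. All 6 mesothelial markers tested were higher, with Wt1 at 2.68, Msln at 1.97 and Upk3b at 1.08 and sums of 7598 and 7740 against 19662 and 19779.5 normalized counts. Among the 9 macrophage markers tested, 8 were higher and 1 lower, with C1qb at 2.98, C1qc at 2.96, Mrc1 at 0.70 and Lyz2 at 0.20 and sums of 170857 and 170090 against 218884 and 218119. Ptprc, which encodes CD45, was not called (adjusted p = 0.91, edgeR). With scaling to the endothelial marker genes it was called higher at 0.25, which is the shift that this scaling gave to all genes (median 0.249). Under that scaling 5 of the 7 type 1 markers and all 7 type 2 markers were still lower, against 9.11% of all genes. No tested marker of any list was at 0. The part of any of these cells in the values of the PDGF genes was not tested.

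**Figure D5:**
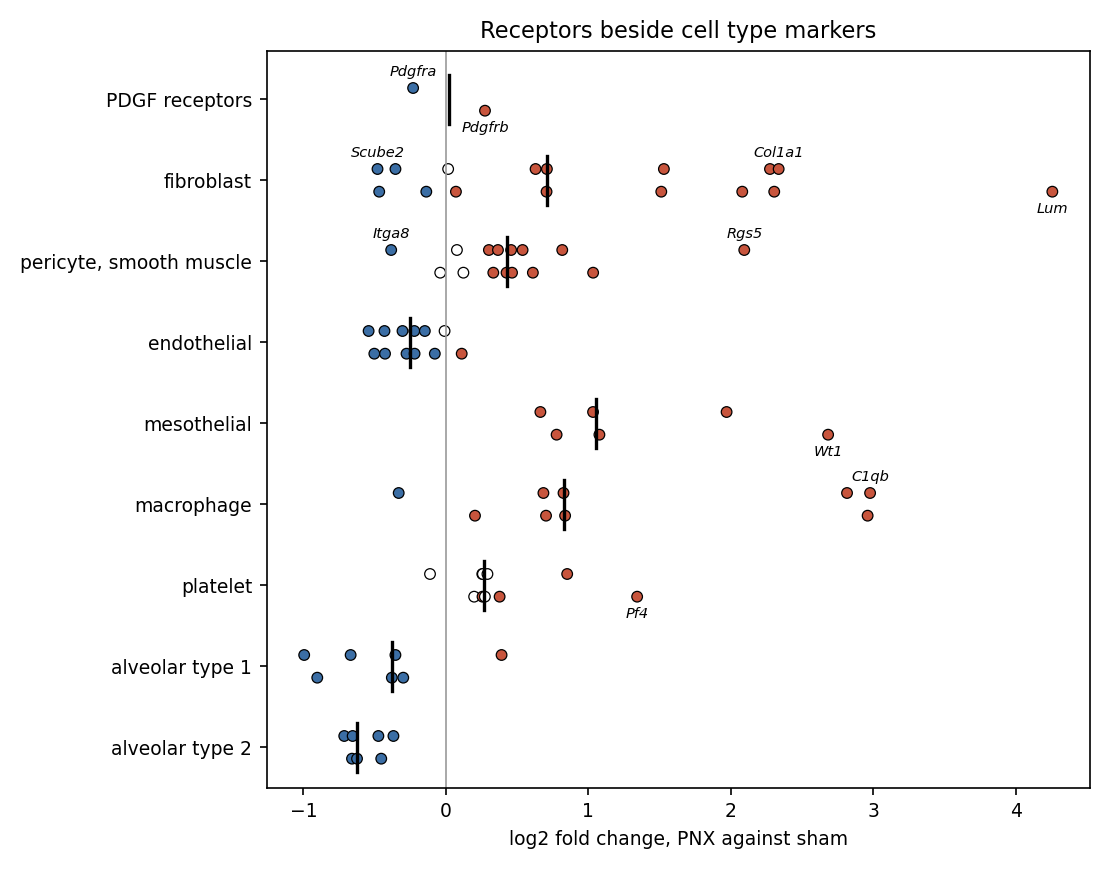
Log2 fold changes (horizontal axis) of the PDGF receptors and of 8 lists of cell type markers, drawn as 1 point per gene, filled red where higher and blue where lower at an adjusted p under 0.01 and open where not called, with a black line for each median. Fibroblast markers spread from Scube2 at -0.48 to Lum at 4.26, and Pdgfra at -0.23 lies in the lower part of that spread.

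For each PDGF gene the 3 genes with the most similar course over the 4 libraries were sought, by the root mean square distance of log2 normalized counts, each centred on its own mean, among genes with at least 100 normalized counts on average. For Pdgfrb they were Cct2, Serpinb6a and Tmed2 (distances 0.0013, 0.0016 and 0.0029), and for Pdgfra Pcnt, Ddx5 and Zfp619 (0.0024, 0.0046 and 0.0048). Pdgfc was nearest to Mrpl51, Cdk4 and Ostc (0.0057, 0.0065 and 0.0065). The nearest genes were Sin3b, Mast3 and Uhrf1bp1 for Pdgfb, Samd11, Gm5431 and Noxo1 for Pdgfa, and Hist3h2a, Tspan2 and Atg13 for Pdgfd. With 4 libraries in 2 groups this likeness rests almost wholly on the size of the change between groups and describes no more than that.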

How the data were processed

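Per the labels and the study's methods, RNA of CD31-selected lung ECs was made into stranded mRNA libraries, read from both ends and mapped to mm10, and the submitters' processing notes name STAR. The program used for counting is not given in the sources used here. The authors deposited, for each of 33068 RefSeq transcripts, an unnormalized count, an FPKM and a TPM, of which the count was tested, the TPM gave levels between genes and the FPKM the implied transcript length. A read on several transcripts was counted for each, so only the transcript with the highest count summed over the 4 libraries stood for a symbol.

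The fit used edgeR 4.0.16 under R 4.3.3 (filterByExpr, TMM, quasi-likelihood F test, no covariates) with Benjamini-Hochberg adjustment of p. The standard error is the log2 fold change divided by the root of F. Detection was set at 3 counts, or 0.0589 to 0.0725 CPM depending on the library, which allows for counting error alone. The chi-square per gene between replicates was 1.74 for sham and 1.51 for PNX, slightly above sampling noise. Such values cannot tell separate pools of mice from repeated preparations of the same RNA. The replicates were kept as separate samples because the study's methods describe them as separate pools. The chi-square between replicates was small beside 128 and 114 between sham and PNX libraries of the same number. As each pool of mice is 1 library, p-values rest on the small spread between the 2 libraries of a group. The fit shares variance across genes, so a p-value does not measure a gene's own spread alone. Groups came from the treatment labels. The replicate numbers 1 and 2 are shared by the groups but stand for different mice. Alternatives were DESeq2 1.42.0 size factors and Wald test, library size, scaling to 12 endothelial markers, filters on low counts, glmTreat, sums over transcripts, a replicate block and each library left out. The steps were tested on simulated data.

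The PDGF genes and the gene lists were chosen with earlier results of these data known. Named from each pathway list were genes past both thresholds or else the 2 with the most counts, and from each marker list the 2 with the largest change and the 2 with the most counts. Adgre1 and Muc16 were not analysed here. A gene that this rule names is not reported here.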

Additional observations from a re-analysis of the deposited data

How the results depend on the processing

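The rises of Pdgfc and Pdgfrb kept their direction under the 12 alternatives used for single genes, with log2 fold changes from 0.52 to 0.79 and from 0.27 to 0.52. Both passed an adjusted p of 0.01 (edgeR or DESeq2) under each of these that used all 4 libraries. The largest adjusted p was 0.0015 for Pdgfc and 2.3e-08 for Pdgfrb. The fall of Pdgfra held under 11 of the 12 alternatives (-0.24 to -0.21 with libraries left out). Scaling to 12 endothelial markers reversed Pdgfra to 0.019, Pdgfb to 0.20 and Pdgfd to 0.20 and brought Pdgfa to 0.30, past the threshold. It moved the list medians to 0.96 for fibroblast markers, 0.67 for mural markers and -5.9e-05 for the endothelial markers themselves, which the scaling sets near zero by construction. Without the second post-PNX library Pdgfa was -0.026, and with each library left out it ranged from -0.026 to 0.13, and the mural median from 0.38 to 0.43. glmTreat, which tests against the fold threshold itself, called 643 genes in place of 1226. It was used for this count alone and is not among the 12 alternatives for single genes. With the replicate number as a block 1229 genes were called, Pdgfra was at -0.23 and Pdgfrb at 0.27, and no call on the 6 PDGF genes changed. The same-numbered libraries share only a number, and their deviations correlated by 0.024. The 2 libraries per group limit the spread that could be seen, and Pdgfc, with the lowest counts, had the largest error of the 6 genes. With a library left out, the lone sample of its group was assumed to vary like the other group.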
